A study of Arabidopsis thaliana with 12 samples.

Results

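Root hair genes other than peroxidases were followed through 12 Affymetrix arrays of *Arabidopsis thaliana* seedlings. The set was defined by locus code as 43 genes, and a gene entered when a probe set (the group of short probes that reports 1 transcript) was listed with that gene alone. This left 10 genes with 1 probe set each, of 22810 probe sets in all. They were the root hair expansins *EXPA7* and *EXPA18* and 8 of the 17 listed extensins and proline-rich proteins. The other 33 genes had no such probe set and were not analysed here: 9 extensins and proline-rich proteins, 7 other wall proteins and enzymes, 14 genes of signalling, membranes, the cytoskeleton and other functions, and the 3 transcription factor genes *RHD6*, *RSL4* and *LRL3*. The measured genes are therefore wall protein genes, and none of the regulators in the set was measured.

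Root hairs are tubes that grow at the tip from single epidermal cells of the root and take up water and nutrients. Basic helix-loop-helix factors such as RHD6 and RSL4 start hair growth, and auxin promotes both the start and the elongation. Expansins loosen the wall where it expands. Extensins are hydroxyproline-rich glycoproteins that carry short arabinose chains and become cross-linked into the wall, and many hair extensins are long repeats that resemble each other closely.

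The wild type was Columbia, and the mutant was *arf2-6*, an allele of the auxin response factor gene *ARF2* in the same ecotype. Seedlings of both were raised for 7 days with gentle shaking in liquid Murashige and Skoog medium with 1.5% sucrose, in cycles of 16 h light and 8 h dark, and then held at 24 °C for 2 h with 5 µM of the auxin IAA (indole-3-acetic acid) or with ethanol, which served as the control. The groups were wild type with ethanol (WT_control), wild type with IAA (WT_IAA), *arf2-6* with ethanol (arf2-6_control) and *arf2-6* with IAA (arf2-6_IAA), with 3 arrays each. Total RNA was taken from seedlings and the mutant was a single allele. Fewer hair cells, less RNA per hair cell and signal from other cells cannot be told apart in any value below.

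Values are log2 signals as deposited, and none lies below 5.64, a signal of 50. Array medians ranged from 6.16 to 6.22 log2, and 42.5 to 43.2% of the probe sets of an array lay at the lowest value. As a check of the treatment, the auxin-induced gene *GH3.3* measured 6.18 to 7.43 log2 over the 6 control arrays and 12.34 to 12.87 over the 6 IAA arrays, and *IAA29* and *LBD29* lay at the lowest value on every control array and at 8.12 or more on every IAA array. All 10 root hair probe sets were among the 14215 tested with limma. A difference was called at an adjusted p (Benjamini-Hochberg, over all tested probe sets) under 0.05. Differences are log2, given with their standard error (SE), and genotype differences are *arf2-6* minus wild type.

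Both hair expansins were lower in *arf2-6*. *EXPA18* (probe set 261099_at) measured 7.77, 7.75 and 6.99 log2 in WT_control, 7.05, 7.91 and 7.20 in WT_IAA, 6.39, 6.82 and 6.61 in arf2-6_control and 5.64, 5.98 and 5.92 in arf2-6_IAA, where the first of the 3 lay at the lowest value. Every *arf2-6* array lay below every wild-type array, and within *arf2-6* every IAA array lay below every control array. Averaged over treatments the genotype difference was -1.22 log2 (SE 0.18, limma adjusted p = 0.0019), 2.33-fold lower. With IAA alone it was -1.54 (SE 0.25, adjusted p = 0.0055), and in controls -0.90 (SE 0.25, adjusted p = 0.12). The averaged value and the one with IAA may understate the difference, because arf2-6_IAA 1 lay at the lowest value.

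*EXPA7* (259525_at) measured 7.10, 7.23 and 6.52 log2 in WT_control and 7.07, 7.52 and 6.86 in WT_IAA. It measured 6.08, 6.42 and 6.36 in arf2-6_control and 6.04, 6.20 and 6.33 in arf2-6_IAA. The 6 *arf2-6* arrays lay below the 6 wild-type arrays, with the narrowest gap between WT_control 3 and arf2-6_control 2. The averaged difference was -0.81 log2 (SE 0.15, limma adjusted p = 0.0048), 1.76-fold lower, and with IAA it was -0.96 (SE 0.21, adjusted p = 0.018). The call with IAA was lost without WT_IAA 2 (adjusted p = 0.078), arf2-6_IAA 1 (0.073) or arf2-6_IAA 3 (0.053), while the averaged calls of both expansins held without any single array.

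WT_control 3 was the lowest WT_control array for both expansins. Without it the genotype difference in controls was called for both, at -1.16 log2 for *EXPA18* (adjusted p = 0.029) and -0.87 for *EXPA7* (adjusted p = 0.035). Of 5 other expansin genes tested (*EXPA4*, *EXPA8*, *EXPA9*, *EXPA15* and *EXPA20*), 0 were called for the averaged genotype difference in limma. Of all tested probe sets 15.9% were called. At an unadjusted p under 0.05 there was 1 of the 5, where 30.3% of all tested passed. The values of the 5 ran from -0.46 log2 in *EXPA9* (adjusted p = 0.057) to 0.14 in *EXPA4*.

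**Figure D1:**
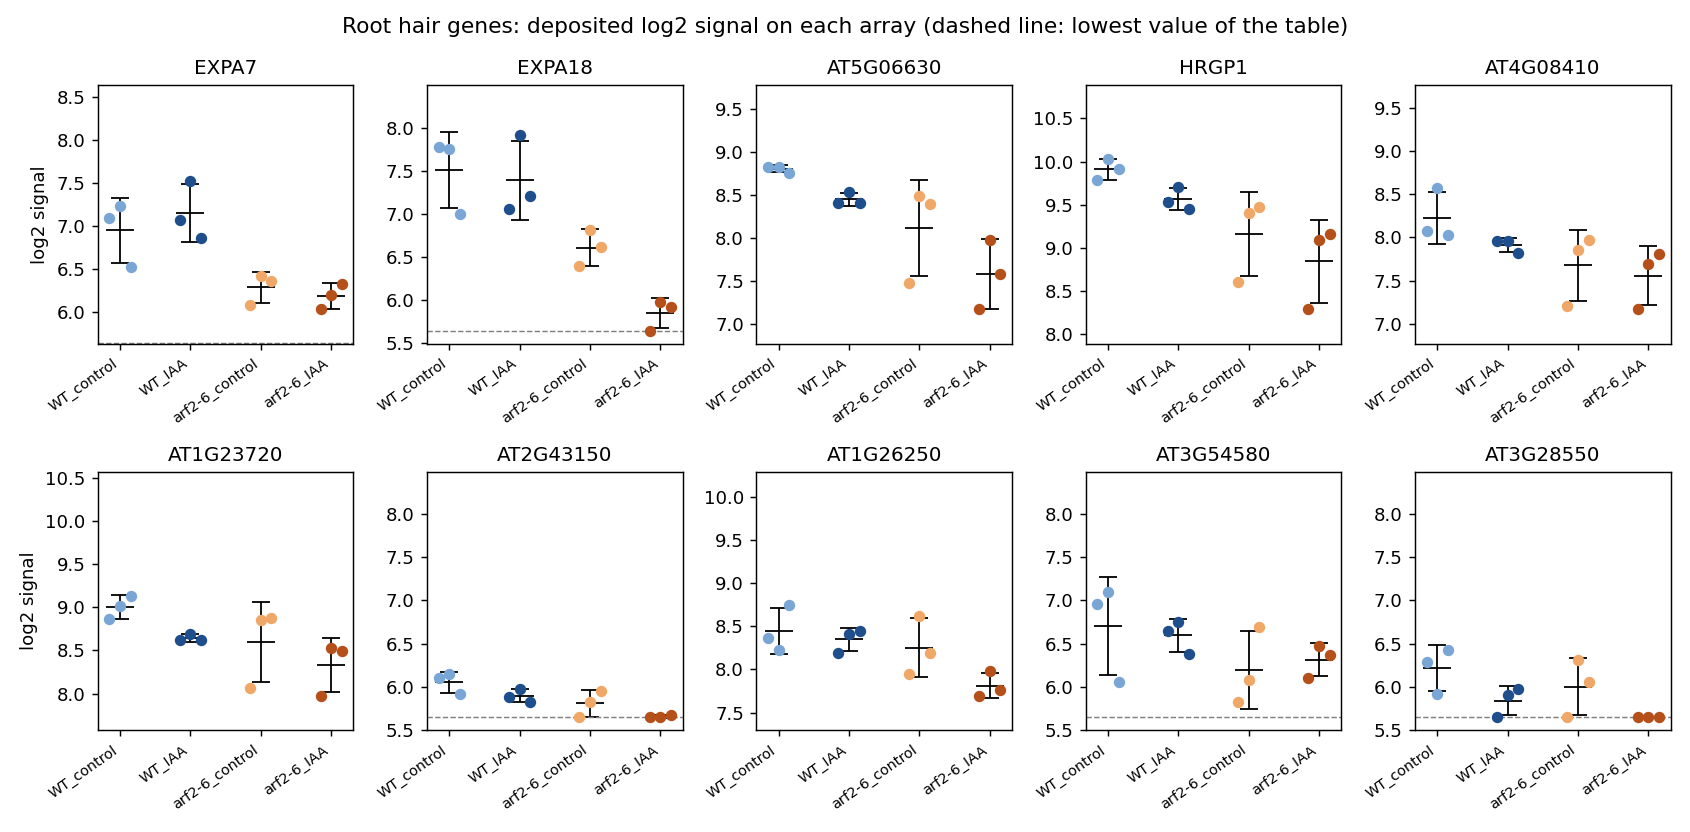
Deposited log2 signal of the 10 root hair genes (vertical axes, each spanning the same number of log2 units) on the 3 arrays of each group (points), with group mean and SD (black bars) and the lowest value of the table (dashed line, 5.64). The *arf2-6* arrays of *EXPA7* and *EXPA18* lie below all wild-type arrays, and the 3 arf2-6_IAA arrays of *AT3G28550* sit on the dashed line.

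Of the 8 extensins and proline-rich proteins, 3 were called lower in *arf2-6* averaged over treatments (*AT5G06630*, *HRGP1* and *AT2G43150*). Of all tested probe sets 8.72% were called lower there. The other 5 of the 8 differed by -0.45 to -0.20 log2 without a call. Of the 8, 4 (*AT5G06630*, *HRGP1*, *AT4G08410* and *AT1G23720*) are reported by probe sets of the type marked _x_at, some of whose probes also match similar transcripts, so their signal can be shared with related extensins. *HRGP1* (*AT3G54590*) and *AT3G54580* are next to each other among the protein-coding genes of the TAIR10.1 gene table, and *AT5G06630* lies next to *EXT10*, which was not measured.

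*AT5G06630* (250682_x_at) measured 8.82, 8.83 and 8.76 log2 in WT_control, 8.41, 8.54 and 8.40 in WT_IAA, 7.48, 8.48 and 8.39 in arf2-6_control and 7.17, 7.98 and 7.58 in arf2-6_IAA. Within each treatment all *arf2-6* arrays lay below all wild-type arrays, and the wild-type arrays were tight, with an SD of 0.04 in WT_control against 0.56 in arf2-6_control. The averaged genotype difference was -0.78 log2 (SE 0.18, limma adjusted p = 0.014), 1.71-fold lower. It was -0.68 in controls (adjusted p = 0.22) and -0.87 with IAA (adjusted p = 0.054). The difference with IAA passed without arf2-6_control 1 (adjusted p = 0.015), arf2-6_control 2 (0.038) or arf2-6_IAA 2 (-1.07, 0.042). The control arrays enter it only through the shared estimate of spread, and without either of those named it stayed at -0.87.

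*HRGP1* (251843_x_at), a hydroxyproline-rich glycoprotein gene, measured 9.79, 10.03 and 9.92 log2 in WT_control and 9.53, 9.71 and 9.45 in WT_IAA. It measured 8.60, 9.41 and 9.47 in arf2-6_control and 8.29, 9.09 and 9.15 in arf2-6_IAA. The *arf2-6* arrays lay below the wild-type arrays within each treatment. The averaged difference was -0.74 log2 (SE 0.18, limma adjusted p = 0.018), 1.67-fold lower. It was -0.75 in controls (adjusted p = 0.18) and -0.72 with IAA (adjusted p = 0.10). The averaged call held without any single array, at an adjusted p of at most 0.049.

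*AT2G43150* (266444_at), a gene of the same group with signals near the lowest value, measured 6.10, 6.15 and 5.91 log2 in WT_control and 5.88, 5.97 and 5.82 in WT_IAA. It measured 5.64, 5.82 and 5.95 in arf2-6_control and 5.64, 5.64 and 5.68 in arf2-6_IAA. With IAA the *arf2-6* arrays lay below the wild-type arrays, and in controls arf2-6_control 3 overlapped them. The averaged difference was -0.24 log2 (SE 0.06, limma adjusted p = 0.019). It is a fitted value that understates the difference, because 2 of 3 arf2-6_IAA arrays and 1 of 3 arf2-6_control arrays lay at the lowest value. Arrays at the lowest value also narrow the spread (SD 0.02 in arf2-6_IAA), so the SE and the adjusted p may be too small. The call was lost without WT_IAA 2 (adjusted p = 0.053).

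The other _x_at genes followed the same order of groups without a call. *AT4G08410* (255140_x_at) measured 8.22 ± 0.31 log2 in WT_control, 7.91 ± 0.08 in WT_IAA, 7.68 ± 0.41 in arf2-6_control and 7.56 ± 0.34 in arf2-6_IAA (SD, n = 3), an averaged genotype difference of -0.45 (95% interval -0.80 to -0.10, adjusted p = 0.082 in limma). *AT1G23720* (265169_x_at) measured 9.00 ± 0.14, 8.64 ± 0.05, 8.60 ± 0.46 and 8.33 ± 0.31 in the same order of groups, a difference of -0.36 (-0.68 to -0.04, adjusted p = 0.12). Both had all arf2-6_IAA arrays below all WT_IAA arrays, as in 18.6% of all tested probe sets. With IAA the genotype difference was -0.35 in *AT4G08410* (limma adjusted p = 0.37) and -0.31 in *AT1G23720* (0.39).

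*AT1G26250* (245874_at) measured 8.36, 8.23 and 8.75 log2 in WT_control, 8.20, 8.42 and 8.44 in WT_IAA, 7.95, 8.62 and 8.19 in arf2-6_control and 7.69, 7.98 and 7.76 in arf2-6_IAA. The control groups overlapped and the IAA groups did not. Its genotype difference was -0.54 with IAA (limma adjusted p = 0.090) and -0.37 averaged (adjusted p = 0.075). Without arf2-6_control 2 both passed the test, at adjusted p of 0.041 with IAA and 0.016 averaged (-0.46). That array enters the difference with IAA, which stayed at -0.54, only through the shared estimate of spread.

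*AT3G54580* (251842_at) measured 6.96, 7.10 and 6.05 log2 in WT_control, and its low WT_control 3 array made that group the most spread of the 4 (SD 0.57). It measured 6.65, 6.75 and 6.38 in WT_IAA, 5.82, 6.08 and 6.69 in arf2-6_control (SD 0.45) and 6.10, 6.47 and 6.36 in arf2-6_IAA. The genotypes overlapped in both treatments. Its averaged genotype difference was -0.40 (adjusted p = 0.20 in limma), and -0.56 without WT_control 3 (adjusted p = 0.028). *AT3G28550* (257041_at) measured 6.29, 5.91 and 6.43 in WT_control, 5.64, 5.90 and 5.97 in WT_IAA and 5.64, 6.31 and 6.05 in arf2-6_control. All 3 arf2-6_IAA arrays were at the lowest value, so its averaged difference of -0.20 (adjusted p = 0.27 in limma) is a fitted value.

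Averaged over treatments, 5 of the 10 root hair genes were called, all lower in *arf2-6* (*EXPA7*, *EXPA18*, *AT5G06630*, *HRGP1* and *AT2G43150*), where 15.9% of all tested probe sets were called and 8.72% were called lower. The median difference of the 10 was -0.42 log2, against 0.01 over all tested probe sets, and 10 of 10 lay below 0, against 47.6% of all tested. The 10 are not independent observations. Of them 4 are _x_at probe sets that can share signal, and arf2-6_control 1 was the lowest array of its group for 10 of 10. With IAA 2 of the 10 were called, both lower (*EXPA7* and *EXPA18*), where 8.79% of all tested were called and 5.86% were called lower, and the median of the 10 was -0.45. The count with IAA was 1 without WT_IAA 2, arf2-6_IAA 1 or arf2-6_IAA 3, and 4 without arf2-6_control 2. Control arrays enter that contrast only through the shared estimate of spread. All tested called ran from 2.41% to 3.45% in the first 3 of these fits and stood at 11% in the last. In controls 0 of the 10 were called in limma, where 0.858% of all tested probe sets were called. Of the 10, 6 had an unadjusted p under 0.05 in controls, all with lower signals in *arf2-6*, where 6.92% of all tested probe sets were lower at that level. The median of the 10 in controls was -0.53, and -0.31 without arf2-6_control 1. Without WT_control 3 the called count in controls was 2 (*EXPA7* and *EXPA18*), where 3.22% of all tested were called.

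All 3 *arf2-6* arrays lay below all 3 wild-type arrays for 5 of the 10 genes in controls, where 6.97% of all tested probe sets did so. With IAA this held for 8 of the 10, where 18.6% of all tested did so. Over both treatments only *EXPA7* and *EXPA18* of the 10 had 6 arrays below 6, against 2.18% of all tested.

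**Figure D2:**
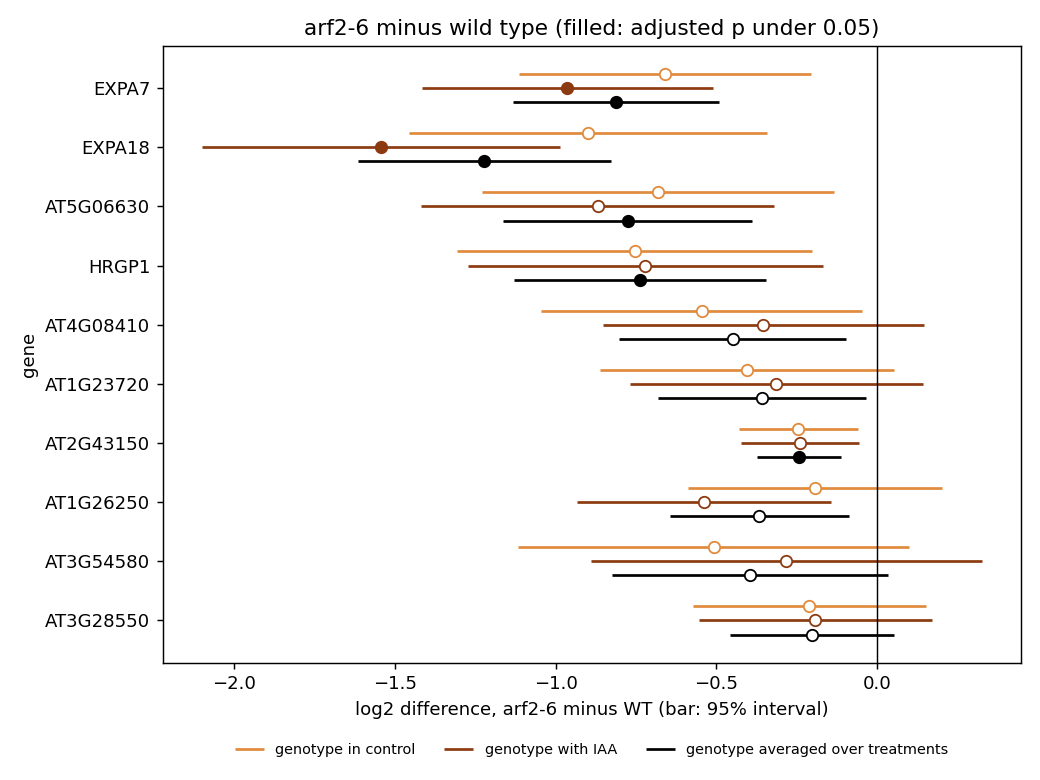
Genotype difference of each root hair gene in log2 (*arf2-6* minus wild type, horizontal axis) with its 95% interval, in controls (light), with IAA (dark) and averaged over treatments (black). Filled points passed an adjusted p of 0.05, and all 30 points lie below 0.

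The arrays numbered 1 gave the lowest signals within *arf2-6*. Among the 3 arf2-6_control arrays, arf2-6_control 1 was the lowest for 10 of the 10 genes, and arf2-6_IAA 1 was the lowest of its group for 8 and tied at the lowest value for the other 2. Over all tested probe sets these arrays were the lowest of their group for 24.7% and 23.3%. The genes deviated from their group means by a median of -0.37 log2 on arf2-6_control 1 and -0.21 on arf2-6_IAA 1, where the medians of all tested probe sets were 0.01 and 0.02. *AT1G62500*, the 1 tested gene of the endodermis and cortex list, was also lowest there, at 7.50 log2 on arf2-6_control 1 against 8.00 and 8.19, and at 7.17 on arf2-6_IAA 1 against 7.46 and 7.53. Other tested genes outside the set went both ways. *SCN1* and *EXPA15* were also the lowest of their group on both arrays, and *AT1G76880* and *EXPA4* were the highest on both. *AT1G76880* measured 6.79 log2 on arf2-6_control 1 against 6.72 and 6.38, and 6.30 on arf2-6_IAA 1 against 6.09 and 5.94. The part of *AT1G62500* in the hair gene values was not tested.

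Without those 2 arrays, a choice made after seeing the data, 4 of the 10 genes were still called lower in *arf2-6* averaged over treatments, where 7.04% of all tested probe sets were called. *HRGP1* then differed by -0.46 log2 (limma adjusted p = 0.012), *AT5G06630* by -0.52 (0.014), *EXPA18* by -1.12 (0.018) and *EXPA7* by -0.72 (0.037). *AT2G43150* was no longer called (adjusted p = 0.084), and the median of the 10 was -0.25 log2. With IAA alone *EXPA18* (-1.44, limma adjusted p = 0.040) and *AT5G06630* (-0.67, 0.032) were then called, and *EXPA7* was not (-0.89, 0.085). Of all tested probe sets 2.66% were called in that comparison. With all 4 arrays numbered 1 left out, 1 of the 10 was called averaged over treatments (*HRGP1*, -0.50, adjusted p = 0.049), where 1.32% of all tested were called. *EXPA18* then differed by -1.13 (adjusted p = 0.065), *AT5G06630* by -0.52 (0.078) and *EXPA7* by -0.71 (0.13).

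**Figure D3:**
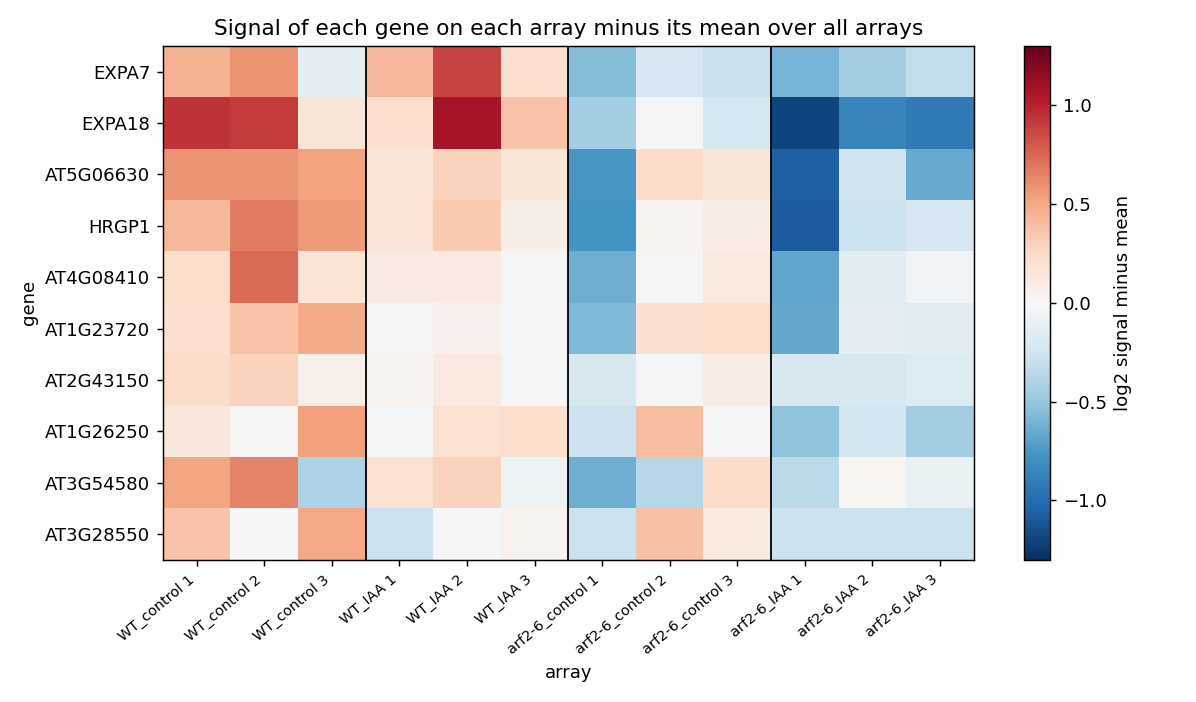
Log2 signal of each root hair gene (rows) on each array (columns) minus the mean of that gene over the 12 arrays, in red where higher and blue where lower. The wild-type arrays are mostly red, arf2-6_control 2 and 3 are mixed, and arf2-6_control 1 and arf2-6_IAA 1 are the deepest blue of the 12 for *HRGP1* and *AT5G06630*.

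After 2 h of IAA none of the 10 genes passed the test with all arrays. In the wild type 0 of the 10 were called in limma, where 8.4% of all tested probe sets were called, and in *arf2-6* 0 were called, where 8.51% were called. Averaged over genotypes 0 of the 10 were called, against 15.1% of all tested. At an unadjusted p under 0.05 there were 1, 2 and 4 genes in these comparisons, all with lower signals after IAA. Of all tested probe sets 9.43%, 11.6% and 14.9% were lower at that level, and 18.7%, 19.4% and 26.4% passed it in either direction. The counts of 1 and 2 genes in the single genotypes are too small to set apart from these shares. The median IAA difference of the 10 was -0.24 log2 in the wild type, -0.29 in *arf2-6* and -0.29 averaged, each against -0.02 to 0.00 over all tested probe sets. The median in *arf2-6* rested on single arrays, at -0.12 without arf2-6_IAA 1, -0.15 without arf2-6_control 3, -0.17 without arf2-6_control 2 and -0.53 without arf2-6_control 1. In the wild type it was -0.36 without WT_IAA 2.

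Averaged over genotypes, 7 of the 8 extensins and proline-rich proteins lay below 0, from -0.45 log2 in *AT5G06630* (SE 0.18, limma adjusted p = 0.13) to -0.16 in *AT2G43150* (SE 0.06, adjusted p = 0.11), and *AT3G54580* stood at 0.00. *AT3G28550*, at -0.37 (SE 0.12, adjusted p = 0.058), had the lowest adjusted p. In the wild type the 4 _x_at genes each had all 3 IAA arrays below all 3 control arrays, which held for 9.95% of all tested probe sets, with differences of -0.36 to -0.31 log2.

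*EXPA7* measured 0.05 log2 averaged over genotypes (95% interval -0.27 to 0.37), and *EXPA18* measured -0.44 (-0.83 to -0.04, limma adjusted p = 0.14). *EXPA18* differed by -0.12 with IAA in the wild type (-0.67 to 0.44) and by -0.76 in *arf2-6* (-1.32 to -0.20, limma adjusted p = 0.10). In *arf2-6* all its IAA arrays lay below all its controls, as in 15.3% of all tested probe sets. With arf2-6_IAA 1 at the lowest value, the *EXPA18* difference in *arf2-6* may be understated. Of the 5 other tested expansin genes, *EXPA4* (1.55 log2 averaged) and *EXPA20* (0.78) rose with IAA, at limma adjusted p of 2.4e-05 and 4.8e-05. Of all tested probe sets 15.1% were called for this average.

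The number of IAA differences that passed changed with single arrays. Without arf2-6_control 1, 4 of the 10 genes fell with IAA averaged over genotypes in limma, where 14.8% of all tested probe sets were called. These were *AT5G06630* (-0.61 log2, adjusted p = 0.0077), *AT3G28550* (-0.45, 0.011), *AT1G23720* (-0.45, 0.016) and *AT2G43150* (-0.20, 0.035). The count was 1 without WT_control 2 (*AT3G28550*), where 16.3% of all tested were called. It was 1 without WT_control 3 (14.2%) or WT_IAA 2 (13.2%), with *EXPA18* in both, and 0 without any other single array. A count of 1 of the 10 is too small to set apart from these shares. Within *arf2-6*, *EXPA18* passed without WT_control 3 (-0.76, limma adjusted p = 0.045), where 9.83% of all tested probe sets were called. That array enters the contrast only through the shared estimate of spread. *AT5G06630* passed within *arf2-6* without arf2-6_control 1 (-0.86, limma adjusted p = 0.019), where 7.25% of all tested were called.

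**Figure D4:**
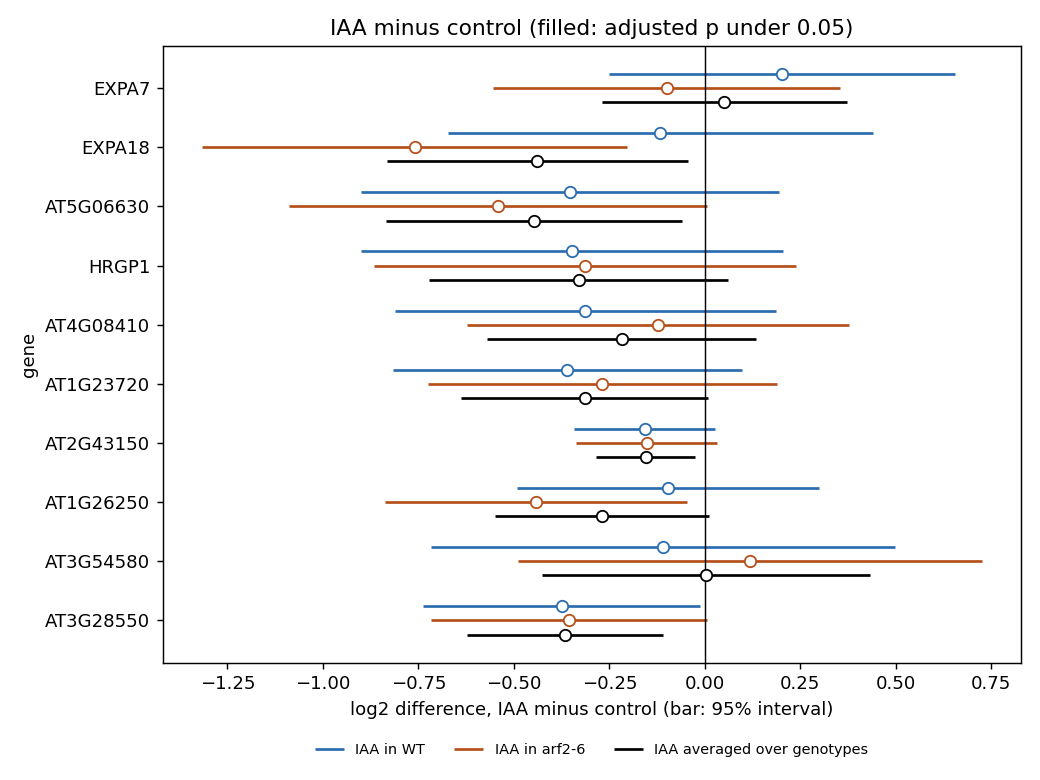
IAA difference of each root hair gene in log2 (IAA minus control, horizontal axis) with its 95% interval, in the wild type (blue), in *arf2-6* (orange) and averaged over genotypes (black). All points are open because 0 passed an adjusted p of 0.05, and *EXPA18* in *arf2-6* lies farthest from 0, at -0.76.

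The IAA effect of the 10 genes was not shown to differ between the genotypes. The interaction, the IAA difference of *arf2-6* less the one of the wild type, was called for 0 of the 10 in limma, with 0 at an unadjusted p under 0.05, where 0.113% of all tested probe sets were called. The largest of the 10 was *EXPA18*, at -0.64 log2 (95% interval -1.43 to 0.14), a fitted value with arf2-6_IAA 1 at the lowest value. The interval of *AT3G54580* was the widest of the 10, at -0.63 to 1.08.

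Among other genes of root hair fate and growth, listed separately, 7 of 54 had a single-gene probe set and 5 were tested, since *TRY* and *AT2G14760* were at the lowest value throughout. *XEG113*, an arabinosyltransferase gene that acts on extensins, was lower in *arf2-6* by -0.22 log2 averaged over treatments (SE 0.06, limma adjusted p = 0.031). It measured 8.23 to 8.43 on the 6 wild-type arrays and 8.04 to 8.19 on the 6 *arf2-6* arrays, with no overlap. This call was lost without any 1 of 7 arrays (WT_control 1, WT_IAA 1, WT_IAA 3, arf2-6_control 1, arf2-6_control 3, arf2-6_IAA 1 and arf2-6_IAA 3), at adjusted p of 0.060 to 0.075. *FER*, a receptor kinase gene of hair growth, differed by -0.16 (adjusted p = 0.22), *JKD*, a zinc finger gene of epidermal patterning, by 0.17 (0.19), and *SCN1*, which restricts hair initiation, by 0.02 (0.86). *AT1G76880* fell with IAA averaged over genotypes by 0.58 log2 (SE 0.13, adjusted p = 0.0084), a call lost without the 4 arrays numbered 1 (adjusted p = 0.11). Of the 5, 1 was called for genotype and 1 for IAA, where 15.9% and 15.1% of all tested probe sets were called. The medians of the 5 were -0.08 and -0.01 log2.

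Of 37 markers of other cell types, 5 had a single-gene probe set. The pollen list's *AT1G29140* was at the lowest value throughout. The leaf genes *LHCB4.1*, *LHCB4.2* and *RCA* differed between the genotypes by 0.02 to 0.15 log2 averaged over treatments (limma adjusted p of 0.24 to 0.88). *AT1G62500* differed by -0.13 between the genotypes (adjusted p = 0.58) and fell with IAA by 0.58 log2 (SE 0.14, adjusted p = 0.015) averaged over genotypes, a call lost without WT_control 3 and arf2-6_control 2 together (-0.49, adjusted p = 0.055).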

How the data were processed

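The authors deposited 1 log2 signal per probe set and array, and the sources used here do not state how signals were summarised and scaled. From the values, signals under 50 were set to 50 (5.64 log2) before the logarithm. Probe sets were named from the platform annotation (13513 with 1 gene, 503 with several, 8794 not listed), updated by Entrez identifier through the TAIR10.1 gene table. A probe set listed with 2 genes was left out by that rule, and lay at the lowest value on every array.

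AFFX controls (64) were dropped, then the dimmest 30% by mean signal with all ties, which removed the 8531 at the lowest value throughout. One limma 3.58.1 model (R 4.3.3, a mean per group, 8 residual degrees of freedom, variance prior following mean signal, two-sided) covered the 12 arrays, and 7 contrasts were each adjusted over 14215 probe sets. The fit was tested on simulated data. Tables and plots used Python 3.11.15. The root hair genes called in any contrast, both hair expansins among them, are given array by array. So are the uncalled *AT1G26250*, *AT3G54580* and *AT3G28550*. *AT4G08410* and *AT1G23720* are given by group, and genes outside the set, called or not, in part. Uncalled genes outside the set are named where a count was 5 or fewer, after their values were seen. Members, lists and named genes were chosen with earlier results of these data known. Whether replicates came from separate cultures is not stated in the labels. If they did not, the p-values reflect technical spread alone. Same-numbered arrays of different groups deviated together in some pairs and not in others (r from -0.50 to 0.49 over 18 pairs), so the numbers were not treated as pairs.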

Additional observations from a re-analysis of the deposited data

How the results depend on the processing

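The number of arrays limits the precision, and signals at the lowest value carry only a bound. Centring arrays on the median, quantile normalization and a prior without a trend changed no count of called root hair genes. Omitting the filter tests nothing here, since the filter removed only constant probe sets and both fits are identical. Leaving out 1 array gave 4 to 6 called for genotype averaged over treatments, where 9.94% to 21.9% of all tested probe sets were called. It gave 1 to 4 with IAA (2.41% to 11% of all tested) and 0 to 2 in controls (0.169% to 3.64%). For IAA averaged over genotypes it gave 0 to 4 (12.5% to 16.3%), and for IAA in *arf2-6* 0 to 1 (5.42% to 9.83%). The count was 0 for IAA in the wild type (6.11% to 9.19%) and for the interaction (0.0141% to 0.317%). For genotype with IAA (2 called, 8.79% of all tested) the count was 4 with the replicate number as a block (8.43%). It was 5 with only the arrays compared (16%), 4 without WT_control 3 and arf2-6_control 2 (15.4%), and 0 without the 4 arrays numbered 1 (0.574%). The replicate block gave 7 for genotype averaged over treatments (15.8% of all tested). It added *AT1G23720* at a limma adjusted p of 0.048 and *AT4G08410* at just under 0.05, and left *XEG113* just over 0.05. For IAA averaged over genotypes (0 called, 15.1% of all tested) the count was 1 with the robust prior (15.6%). It was 1 with probe sets above the lowest value on at least 6 arrays (16.6%). Without arf2-6_control 1 and arf2-6_IAA 1 it was 4 (12.3%), and without the 4 arrays numbered 1 it was 3 (8.19%). For genotype in controls (0 called, 0.858% of all tested) the count was 2 without WT_control 3 and arf2-6_control 2 (5.06%). For IAA in *arf2-6* (0 called, 8.51% of all tested) it was 1 with only the arrays compared (8.68%). It was 1 without arf2-6_control 1 and arf2-6_IAA 1 (4.7%). The same fit also gave 1 for IAA in the wild type (7.13%), where 0 were called with all arrays. For genotype averaged over treatments (5 called) it was 1 without the 4 arrays numbered 1. In that fit 186 of all tested probe sets were called for this contrast, against 2256 with all arrays. Over the other alternatives that total ran from 997 to 3558. For IAA averaged over genotypes, the fit without the 4 arrays numbered 1 called 1156 of all tested, against 2151 with all arrays. The cause of these changes was not tested. The fit of only the arrays compared gives no value for the averages and the interaction, which need all 4 groups. No called difference of a named gene changed sign in any alternative, and the sets without arrays numbered 1 were chosen after seeing the data.

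Over 6 *Arabidopsis* control transcripts the 3' probe set exceeded the 5' one, a measure of RNA degradation, by a mean of 0.51 log2 on arf2-6_control 1 and 0.49 on arf2-6_IAA 1, within the range of 0.41 to 0.67 of the other arrays.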
